A study of Mus musculus with 57 samples.

Results

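The clustered protocadherins are cell-surface adhesion proteins encoded side by side in 3 gene clusters, named alpha, beta and gamma. They were taken as every gene of the count table whose symbol begins with Pcdha, Pcdhb or Pcdhg, which gave 54 of the 21118 genes measured. By their symbols and gene identifiers these were 11 variable alpha genes, 21 beta genes, 17 variable gamma genes (11 of subtype A and 6 of subtype B) and 5 C-type genes. The C-type genes are Pcdhac1 and Pcdhac2, at the end of the alpha cluster, and Pcdhgc3, Pcdhgc4 and Pcdhgc5, at the end of the gamma cluster. Pcdha4, Pcdhb1, Pcdhga10 and Pcdhgb8 were not analysed here.

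The libraries held RNA on the ribosomes of astroglia, from the whole cerebral cortex of mice in which Aldh1l1, a gene of astrocytes, drives a version of the ribosomal protein L10 that carries green fluorescent protein. All mice carried this Aldh1l1-L10-GFP transgene on a C57BL/6 background, and no other treatment or allele is labelled. Polysomes were pulled out with an antibody to the fluorescent protein, so RNA of other cells can be carried along in the pull-down. The 53 animals, each with 1 library, were males and females at P1, P4, P7, P14 and P35 (postnatal days) and as adults, with 8, 8, 12, 10, 6 and 9 libraries at these ages. The groups labelled female held 4, 4, 8, 5, 3 and 4 libraries and the groups labelled male 4, 4, 4, 5, 3 and 5. In a bulk library, fewer cells of a type and less RNA per cell cannot be told apart.

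Each variable first exon of the alpha and gamma clusters encodes a whole extracellular and membrane-spanning part and has a promoter of its own. It is spliced to constant exons shared by its cluster, whereas most beta genes are a single exon with no constant part. In neurons a cell transcribes a small, largely random choice of the variable promoters, a choice that depends on the DNA-binding protein CTCF, on cohesin and on DNA methylation, while C-type promoters are used more regularly. The proteins form mixed complexes that bind only matching complexes on another membrane, which lets a neuron tell its own branches from those of others. Gamma protocadherins are also made by astrocytes, where they are known to act in contacts with neurons and in astrocyte shape.

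All members lie on the plus strand of chromosome 18 in GENCODE release M21 on GRCm38. The alpha genes begin between position 36930184 (Pcdha1) and position 37143503 (Pcdhac2), and most end together at 37187657. The beta genes lie from 37294812 (Pcdhb2) to 37524479 (Pcdhb22). The gamma genes begin between 37661793 (Pcdhga1) and 37819513 (Pcdhgc5) and end within a few bases of 37841873. Every alpha gene therefore overlaps the others of its cluster in the constant exons, and the gamma genes do likewise. How reads in shared exons were counted is not given in the sources used here. In adult male 1, Pcdha1 had 0 counts beside 138 for Pcdhac2, and Pcdhga1 had 0 beside 206 for Pcdhgc3. Shared reads were thus not added in full to every gene of a cluster. Whether they were dropped or assigned otherwise is not known, so single alpha and gamma counts are uncertain. Pcdhb21 overlaps Pcdhb22. BC037039 overlaps Pcdhgc3 on the opposite strand, and since the strand setting is not given its reads may also enter or leave the count of Pcdhgc3. The gene called Pcdhgc4 here carries the symbol Pcdhga8 in the table, but its identifier, ENSMUSG00000023036, is that of Pcdhgc4. A pair of genes both carry the symbol Pcdha11 and are told apart by identifier.

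Total counts ran from 14768178 to 48541139 per library, with a median of 24033399. The members together received 95722 counts, between 137 and 5551 per library with a median of 1435. Only Pcdhgc3, Pcdhac2 and Pcdhgc5 had a count in every library, 25 members were at 0 in 10 or more libraries, and 40 had a median under 1 CPM (counts scaled by the TMM library size). P1 female 4 and P7 female 40 each held counts for 7 members and P14 male 4 for 18, against at least 26 in the other 50 libraries. These 3 libraries also had the fewest genes with 10 counts or more, 10085, 13834 and 14530, against at least 15531 elsewhere.

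The C-type genes took 33.6% of all member counts, the beta genes 31.7%, the variable gamma genes 20.6% and the variable alpha genes 14.0%. Levels were compared between genes per kilobase of exon shared with no other annotated gene on the same strand. On that scale Pcdhgc3 was highest, with a median of 2.07 CPM per kilobase over the 53 libraries, followed by Pcdhac2 with 1.86. Pcdhgc3, a C-type gene with a known link to Wnt signalling through Axin1, and Pcdhac2, which is known for the spacing of serotonergic axons, together held 22.1% of the member counts. Next came Pcdhga12 with a median of 0.752 CPM per kilobase and Pcdhgc4, a gene needed for the survival of cortical interneurons, with 0.661. The alpha genes Pcdha5, with 0.473, and Pcdha12, named here for its place in this order, with 0.460, stood above Pcdhgc5, which in neurons binds GABA-A receptors, with 0.445. Pcdhac1 stood lower, at 0.206 CPM per kilobase. Neighbours in this order overlapped widely between libraries.

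Among the variable genes, the highest mean level of the alpha cluster was that of Pcdha5 at 1.79 CPM and the lowest that of Pcdha11 (ENSMUSG00000102206) at 0.190 CPM. In the beta cluster Pcdhb17 was highest at 2.90 CPM and Pcdhb2 lowest at 0.114 CPM, with no count in 34 of 53 libraries. In the gamma cluster Pcdhga12, the last variable gene before the C-type exons, was highest at 3.96 CPM and Pcdhga1, the first, lowest at 0.194 CPM. These 6 values are not scaled by length and order genes within a cluster only.

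**Figure D1:**
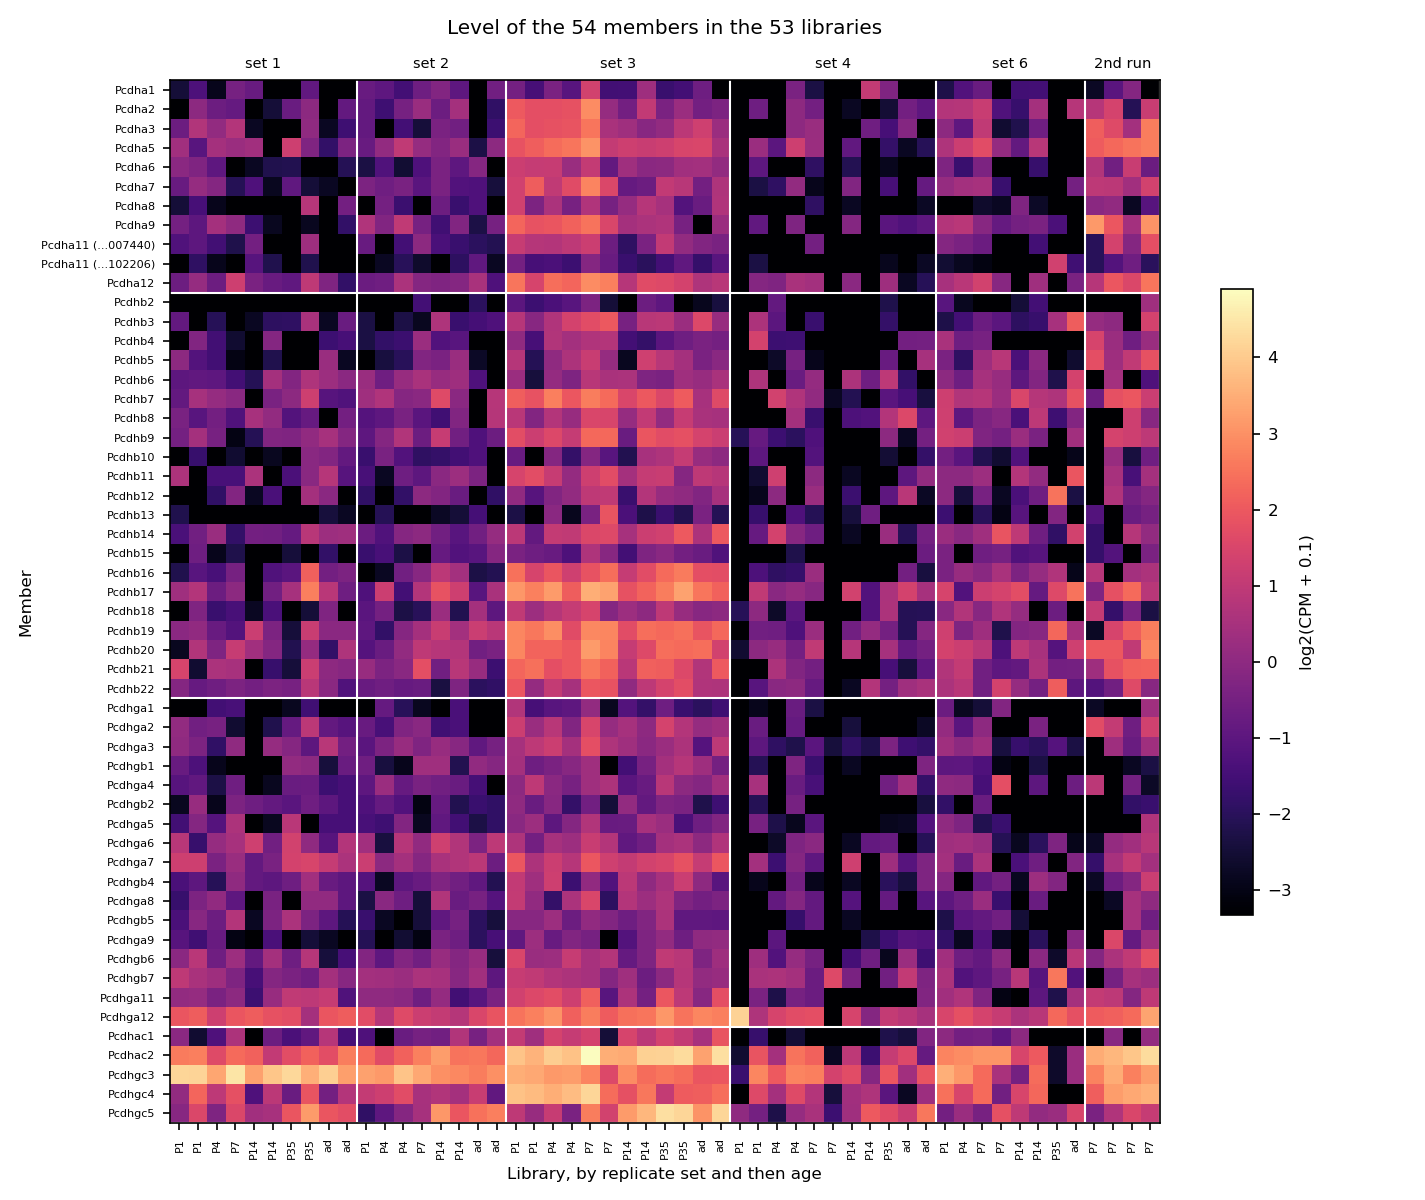
Level of each of the 54 members (vertical axis, grouped as alpha, beta, gamma and C-type from top to bottom) in each of the 53 libraries (horizontal axis, by replicate set and then age, ad for adult), as log2(CPM + 0.1). The brightest bands are Pcdhgc3, Pcdhac2 and Pcdhga12, and the columns of set 3 are brighter than those of set 1 in most alpha and beta genes.

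From P1 to adulthood 1 member rose and 1 fell. Pcdhgc5 rose, the alpha gene Pcdha9 fell, and the other 52 members did not pass the test. That is 2 of 54 members, against 28.1% of all genes in the same comparison (14.6% higher, 13.4% lower). The test was edgeR's quasi-likelihood test on the counts, averaged over the sexes, with Benjamini-Hochberg adjustment over the 21118 genes and a threshold of 0.05, and the 53 animals as independent samples. The replicate number in the library titles was not a term of this model. With it as a further term 4 members passed, against 41.3% of all genes.

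Pcdhgc5 ranged from 0.173 to 2.82 CPM in the 8 libraries at P1, with a median of 0.861, and from 2.13 to 18.4 CPM in the 9 adult libraries, with a median of 5.51. The ranges overlapped only in the highest P1 library and the 2 lowest adult libraries. The log2 change was 2.43 ± 0.65 (SE), with an adjusted p of 0.00366 by edgeR's quasi-likelihood test. P1 libraries averaged 1.10 ± 0.847 CPM (SD, n = 8), P4 libraries 0.857 ± 0.583 (n = 8), P7 libraries 2.12 ± 1.63 (n = 12), P14 libraries 4.43 ± 4.13 (n = 10), P35 libraries 9.30 ± 8.29 (n = 6) and adult libraries 6.22 ± 4.96 (n = 9). The 6 libraries at P35 held 1.10, 3.11, 3.75, 9.01, 18.3 and 20.5 CPM, so the SD there was nearly as large as the mean, and the 2 highest were those with replicate number 3.

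Libraries of different animals share a replicate number across ages, and the levels of many members differed between these numbers, as described further on. Within each of the 5 numbers that have both ages, the adult libraries held more Pcdhgc5 than the P1 libraries. The P1 and adult values were 0.809 to 2.82 and 3.21 to 3.72 CPM for number 1, 0.173 and 5.51 to 6.42 for number 2, and 1.04 to 1.86 and 8.19 to 18.4 for number 3. They were 0.605 to 0.914 and 2.13 to 5.81 CPM for number 4, and 0.586 and 2.67 for number 6. No P1 library reached an adult library of its own number, but number 6 has only 1 library at each age and number 2 only 1 at P1. In number 3, which had the highest levels, mean Pcdhgc5 went through 1.45, 1.37, 4.35, 10.8, 19.4 and 13.3 CPM from the youngest age to the oldest.

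Pcdha9, a variable alpha gene, stood at 0 to 4.67 CPM at P1, with a median of 1.05, and at 0 to 1.10 CPM in adults, with a median of 0.181. It was at 0 in 1 of 8 P1 libraries and in 3 of 9 adult libraries, and the ranges overlapped. The fall was -2.82 ± 0.99 (SE) on the log2 scale, with an adjusted p of 0.0283 by edgeR. The call was lost when any 1 of P1 female 3, P1 male 3, adult female 1 and adult female 3 was left out, with adjusted p-values between 0.0567 and 0.0881. It was also lost with limma voom (adjusted p = 0.0577).

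The other C-type genes did not pass in the model without the replicate number. Pcdhgc3 averaged 10.8 ± 5.87 CPM (SD, n = 8) at P1 and 5.99 ± 4.99 (n = 9) in adults, and its log2 change was -0.84 ± 0.60 (SE; adjusted p = 0.306 by edgeR). Mean Pcdhgc3 was lower in adults than at P1 in 5 of 5 replicate numbers, 13.2 against 18.3 CPM in number 1, 7.08 against 9.52 in number 2, 3.75 against 10.8 in number 3, 2.42 against 3.60 in number 4 and 1.10 against 11.5 in number 6. The libraries of the 2 ages overlapped in number 4 and not in numbers 1, 2 and 3, with 1 library at P1 in number 2. In number 6 each mean is that of 1 library, so overlap cannot be judged there. With the replicate number as a further term of the model, Pcdhgc3 passed (-1.16, adjusted p = 0.0465 by edgeR). Pcdhgc4 averaged 5.47 CPM at P1 (SD 5.50), 5.92 at P7, 2.42 at P14 and 1.70 ± 1.86 in adults, which made -1.68 ± 0.84 on the log2 scale (SE; adjusted p = 0.132 by edgeR). Pcdhac2 had its highest mean over all libraries at P7. Within replicate numbers its highest mean was at P7 in numbers 3 and 6 only. It was at P1 in number 1 (6.26 CPM), at P14 in number 2 (7.43) and at P4 in number 4 (3.41). The log2 change of Pcdhac2 from P1 to adult was -0.19 ± 0.75 (SE; adjusted p = 0.880 by edgeR). Pcdhac1 averaged 0.681 CPM at P1 and 1.06 CPM in adults (adjusted p = 0.686 by edgeR). The lowest P1 values of Pcdhgc3 and Pcdhac2, 0.211 and 0.0703 CPM, were both those of P1 female 4.

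**Figure D2:**
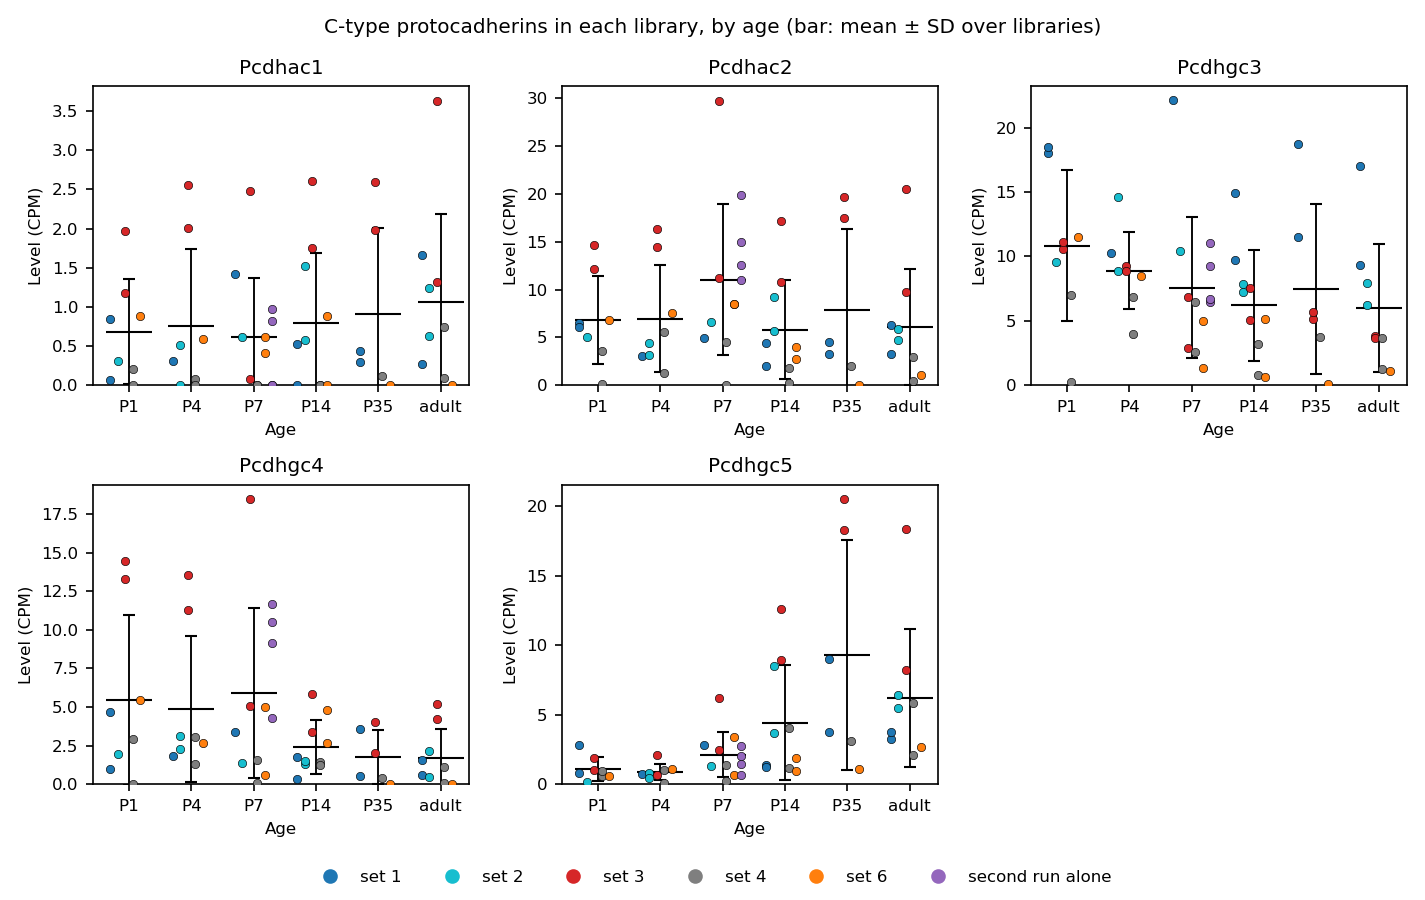
Level in CPM (vertical axis) of the 5 C-type genes in each library, by age (horizontal axis), with points coloured by replicate set and the black bar showing mean ± SD over libraries. Pcdhgc5 averaged 1.10 CPM at P1 and 6.22 CPM in adults, while the libraries of the other 4 genes spread widely at every age and the points of set 3 lie high for Pcdhac2, Pcdhgc4 and Pcdhgc5.

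All 11 variable alpha genes had a negative log2 change, with a median of -1.38. In the model without the replicate number none but Pcdha9 passed, whereas with that number Pcdha6 passed too, with values given further on. Without the number Pcdha7 gave -1.77 ± 0.98 (SE; adjusted p = 0.178 by edgeR), Pcdha2 -1.57 (adjusted p = 0.235) and Pcdha11 (ENSMUSG00000007440) -1.89 (adjusted p = 0.259). The 17 variable gamma genes gave 15 negative and 2 positive values, with a median of -0.51, and 0 passed. The smallest adjusted p among them was that of Pcdhga1 (-2.08, adjusted p = 0.234 by edgeR), followed by Pcdhga2 (-1.29, 0.403), Pcdhgb2 (-1.16, 0.464) and Pcdhgb6 (-0.74, 0.466). The 21 beta genes split into 9 positive and 12 negative values with a median of -0.16, and 0 passed. Pcdhb14 was highest in rank (0.95 ± 0.76, SE; adjusted p = 0.376 by edgeR), and Pcdhb2, Pcdhb4 and Pcdhb12 followed at -1.63, -1.12 and 1.02. Over all 54 members the median log2 change was -0.39, beside 0.06 over all genes. No beta or gamma gene had an unadjusted p under 0.05, and in the alpha cluster only Pcdha9 had one. Of all 21118 genes 8163 had one.

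**Figure D3:**
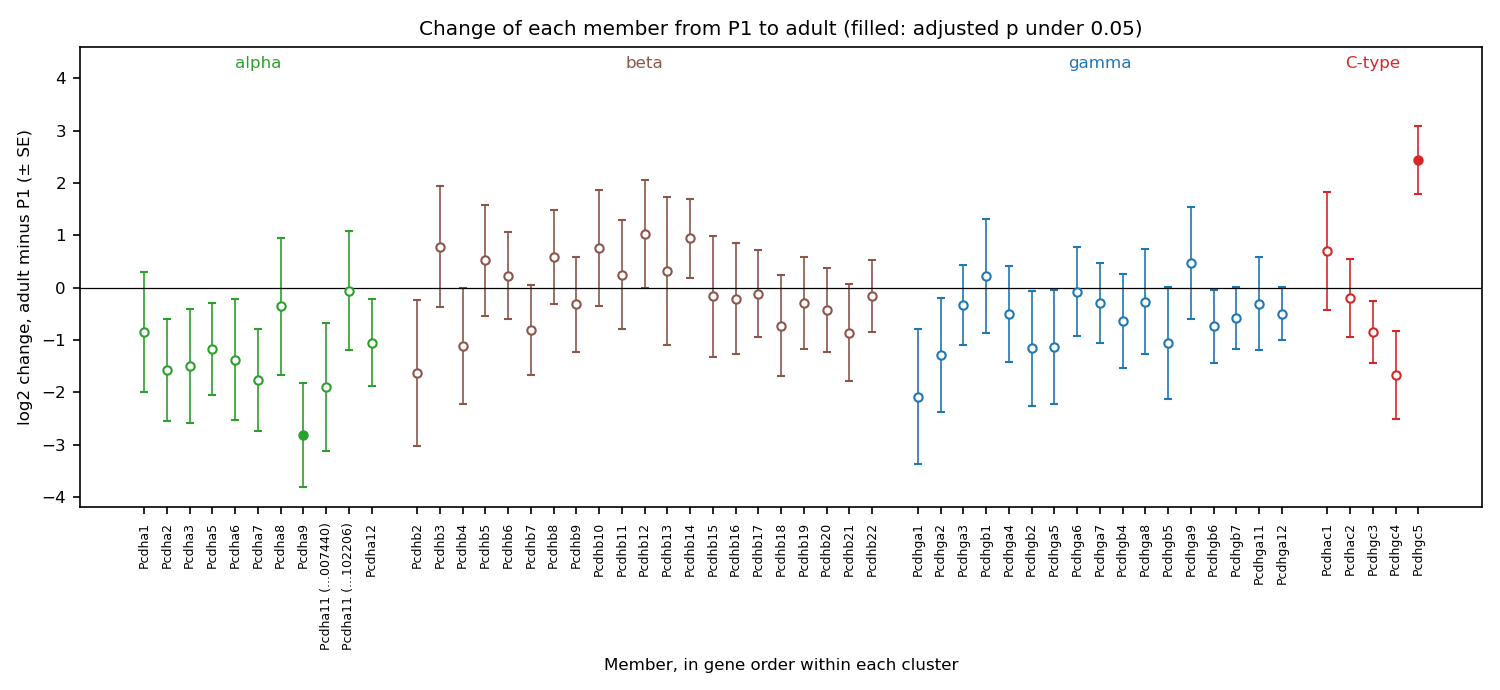
The log2 change from P1 to adult (vertical axis) of each member (horizontal axis, in gene order within the alpha, beta, gamma and C-type groups), with bars of ± 1 SE; filled points passed an adjusted p of 0.05. Pcdhgc5 at 2.43 and Pcdha9 at -2.82 are the filled points, and all 11 alpha points lie below 0.

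Markers of cell types moved between the same ages. From P1 to adult 7 of 10 astrocyte markers rose and 0 fell, and their summed level went from 546 to 4326 CPM at P1 to 3075 to 19772 CPM in adults. All 7 oligodendrocyte markers rose, from a sum of 107 to 287 CPM to one of 771 to 2368 CPM. Of 12 neuron markers 6 rose and 3 fell, with sums of 1644 to 8353 CPM at P1 and 2630 to 11301 CPM in adults. Microglia markers rose in 2 of 6, and 1 each of the 4 oligodendrocyte progenitor markers, the 6 endothelial and mural markers and the 4 choroid plexus and ependyma markers fell. No list summed to 0 in any library. Of all genes 14.6% rose and 13.4% fell. The part of the marker shifts in the changes of Pcdhgc5 and Pcdha9 was not tested.

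Over the 6 ages 1 member changed, Pcdhgc5 (adjusted p = 0.000248 by edgeR), against 24.9% of all genes. Pcdha9 was next, with an adjusted p of 0.102. No single step between neighbouring ages reached the threshold for any member. By edgeR 0 members were called at P1 to P4 (0% of all genes), 0 at P4 to P7 (0.152%), 0 at P7 to P14 (0.0189%), 0 at P14 to P35 (0.0237%) and 0 at P35 to adult (0%). At an unadjusted p under 0.05 there were 0, 1, 1, 1 and 0 members, beside 972, 1597, 1926, 1743 and 451 of all 21118 genes. DESeq2 and limma voom also called 0 members in each step.

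Between the sexes, as labelled, edgeR called 0 members over the 6 ages (0.0237% of all genes), with 1 at an unadjusted p under 0.05 (399 of 21118 genes). It called 0 members whose change from P1 to adult differed between the sexes (0% of all genes), with 0 at an unadjusted p under 0.05 (571 of 21118 genes). DESeq2 and limma voom called 0 in both. The description of 5 libraries holds the letter of the other sex, so the labelled sex of those animals is in doubt.

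Because single isoforms share exons, counts were also summed per library over the variable alpha, beta, variable gamma and C-type genes. The C-type genes share constant exons with the variable genes of their cluster, so the division between those sums stays uncertain. From the youngest age to the oldest, the alpha sum averaged 11.1, 11.9, 17.1, 5.54, 7.62 and 4.28 CPM. The P7 means include 4 libraries of a second sequencing run, found at no other age, with alpha sums of 16.5 to 35.5 CPM. The beta sum averaged 21.0, 20.5, 28.6, 17.1, 29.6 and 19.2 CPM, and the variable gamma sum 18.2, 14.0, 15.8, 10.6, 18.8 and 12.7 CPM. The C-type sum averaged 24.9, 22.4, 27.3, 19.6, 27.3 and 21.1 CPM. None of the 4 sums and 3 ratios tested differed between P1 and adults by an exact two-sided permutation test over the 8 and 9 libraries, adjusted over the 7 values. The gamma sum was lower in adults by -0.54 on the log2 scale (adjusted p = 0.462, exact permutation test), and the ratio of beta to gamma was higher by 1.05 (adjusted p = 0.462).

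Taken within numbers, the gamma sum was lower in adults in 5 of 5, by -0.30, -0.28, -0.37, -0.89 and -0.80 in numbers 1, 2, 3, 4 and 6, with a mean of -0.53 (adjusted p = 0.0108, exact permutation of ages within numbers). The beta to gamma ratio was higher in adults in 5 of 5, by 0.06 to 3.20 with a mean of 1.05 (adjusted p = 0.0162, same test). The widest value, 3.20, was that of number 4, which holds P1 female 4, and without that library the pooled ratio difference was 0.34 and the mean within numbers 0.46. All 253 variable gamma counts of P1 female 4 were those of Pcdhga12. Without that library the mean of the gamma sum within numbers was -0.43 (adjusted p = 0.0036, same test). The gamma call was lost without adult male 4 (adjusted p = 0.0972, same exact test) or adult female 4 (0.0756), and the ratio call without adult female 3 (0.0540), adult male 4 (0.848) or adult female 4 (0.859). The beta sum (0.52) and the C-type sum (-0.30) did not pass within numbers.

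The alpha sum turned on P1 female 4, which held 0 alpha counts and so stands at a floor set by the 0.5 counts added to each sum. Taken within numbers, the alpha sum was lower in adults by -1.88, -0.63, -1.41 and -1.59 in numbers 1, 2, 3 and 6 and higher by 2.32 in number 4, which holds that library, with a mean of -0.64 (adjusted p = 0.825, exact permutation test). Without P1 female 4 the mean within numbers was -1.30 and passed (adjusted p = 0.0036, same test), and the pooled difference was -1.51 instead of -0.51. The ratio of alpha to gamma then also passed within numbers, at -0.87 (adjusted p = 0.0036), whereas it was -0.11 with the library. Without P1 male 4, the other P1 library of that number, the alpha mean was 0.02. The pooled difference of the beta sum, 0.50, was -0.19 without P1 female 4.

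Between replicate numbers 41 of 54 members differed, against 69.1% of all genes, and over the ages 1 of 54, against 24.9%, so the larger count between numbers is one of all genes too. The title of each library ends in a number whose first digit is 1, 2, 3, 4 or 6, or in S for 4 libraries at P7 that came from a second sequencing run alone. Libraries with the same first digit are called a set here, with 10, 8, 12, 11 and 8 libraries in sets 1, 2, 3, 4 and 6, and the 4 of the second run alone are set S. What the number stands for is not given in the sources used here. Each set was compared with set 1 in 1 model with the 12 groups of age and sex. Set S occurs at P7 only and set 2 has no library at P35.

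In set 3 most alpha and beta genes were higher than in set 1 of the same age and sex. By edgeR 33 of 54 members differed, 32 higher and 1 lower, against 53.0% of all genes (28.2% higher, 24.8% lower). The median log2 difference of the members was 2.11, beside 0.11 over all genes, and 52 of 54 were positive. Of the alpha genes 10 of 11 were higher (median 2.47), of the beta genes 15 of 21 (median 2.34), of the variable gamma genes 4 of 17 (median 1.00) and of the C-type genes 3 of 5. The low-count filter used here removed 0 genes. Whether low genes had been cut from the table before it was deposited was not tested.

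Pcdhb17 had the smallest adjusted p. It ranged from 0 to 6.46 CPM in the 10 libraries of set 1, with a median of 1.02, and from 3.45 to 11.4 CPM in the 12 of set 3, with a median of 6.41, a log2 difference of 2.79 ± 0.65 (SE; adjusted p = 0.000414 by edgeR). The set ranges overlapped, since the highest library of set 1 lay above the median of set 3. Pcdhb19 ranged from 0.0843 to 2.19 CPM in set 1 and from 3.06 to 7.60 CPM in set 3, with no overlap (2.60 ± 0.61, SE; adjusted p = 0.000459 by edgeR). Pcdhb20 ranged from 0.0404 to 2.11 CPM and from 2.02 to 8.88 CPM, overlapping at the edge (2.47 ± 0.58, SE; adjusted p = 0.000423 by edgeR). The 4 variable gamma genes that were higher, Pcdhga1, Pcdhga2, Pcdhgb1 and Pcdhga4, are the first A and B genes of the cluster by position, with Pcdhga3 among them as the exception. They are named after their values were seen.

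The C-type genes did not move as a group. Pcdhac2 averaged 4.40 ± 1.54 CPM (SD, n = 10; 1.95 to 6.45) in set 1 and 16.2 ± 5.52 (n = 12; 9.78 to 29.8) in set 3, with no overlap (log2 difference 1.93 ± 0.50, SE; adjusted p = 0.00129 by edgeR). Pcdhgc4 averaged 1.92 and 8.40 CPM (2.22 ± 0.62, SE; adjusted p = 0.00256 by edgeR), and Pcdhgc5 2.94 and 8.44 CPM (1.29 ± 0.47, SE; adjusted p = 0.0187 by edgeR). The Pcdhgc5 call was lost without P14 male 1 (adjusted p = 0.0513) or P14 female 1 (0.0507 by edgeR). Pcdhac1 averaged 0.584 and 2.01 CPM and did not pass (adjusted p = 0.0626 by edgeR). It passed with limma voom (adjusted p = 0.0156), with DESeq2 (0.0310) and without the P7 libraries (0.0211 by edgeR). It also passed without the libraries with the other sex's letter (0.0199 by edgeR) or those with few genes (0.0347). Leaving out P7 female 10, P7 female 30 or adult female 1 gave the call too. RLE scaling, no filter and the stricter filter did not. Pcdhgc3 was the 1 member lower in set 3, with 15.0 ± 4.54 CPM (SD, n = 10; 9.33 to 22.1) in set 1 and 6.69 ± 2.77 (n = 12; 2.87 to 11.1) in set 3, ranges that overlapped little (-1.26 ± 0.42, SE; adjusted p = 0.0118 by edgeR). Without the P7 libraries its call was lost (-1.10, adjusted p = 0.0597 by edgeR). So the most abundant C-type gene was lower in the set in which Pcdhac2, Pcdhgc4 and Pcdhgc5 were higher.

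**Figure D4:**
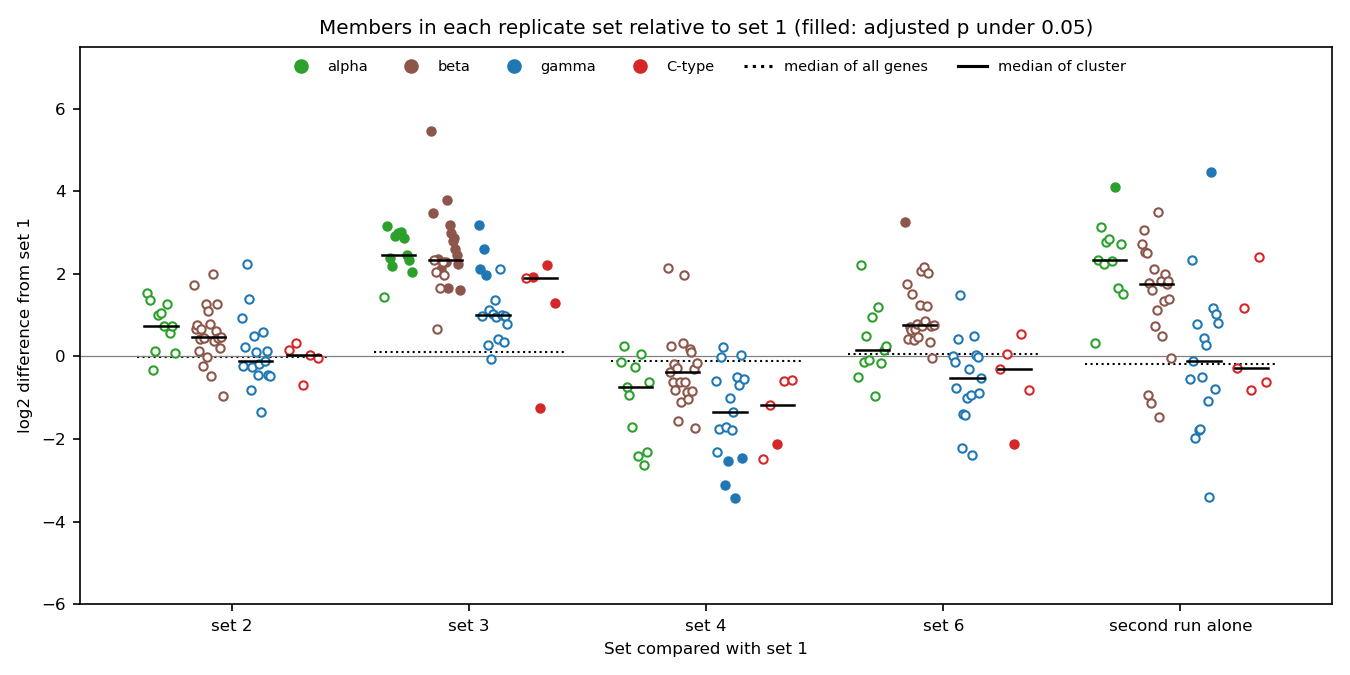
The log2 difference from set 1 (vertical axis) of each member in sets 2, 3, 4 and 6 and in the libraries of the second run alone (horizontal axis), coloured by cluster; filled points passed an adjusted p of 0.05, solid bars are cluster medians and dotted lines the median of all genes. Set 3 holds 33 filled points, 32 of them above 0, while set 2 holds none.

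The other sets differed from set 1 in fewer members. By edgeR 0 members differed in set 2 (0% of all genes), 0 also at an unadjusted p under 0.05 (1126 of 21118 genes), and DESeq2 and limma voom called 0 members. In set 4 5 members were lower and 0 higher, against 17.9% of all genes (8.30% lower), with a median of -0.66 beside -0.12 over all genes. They were Pcdhgc3 (-2.12 ± 0.46, SE; adjusted p = 0.00122 by edgeR), Pcdhgb5 (-3.42 ± 0.90, SE; adjusted p = 0.00668), Pcdhga6 (-2.54 ± 0.75, SE; adjusted p = 0.0151) and, named to complete the count, Pcdhga11 and Pcdhgb2, all of the gamma cluster. Pcdhgb5 had no count in 8 of the 11 libraries of set 4 and a count in all 10 of set 1. Set 4 holds all 3 of the libraries with few genes detected, and without them 3 members were called, against 12.3% of all genes.

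In set 6 2 members differed, against 34.3% of all genes, with a median of 0.37 beside 0.06 over all genes. Pcdhgc3 was lower, with a mean of 4.15 CPM (-2.13 ± 0.52, SE; adjusted p = 0.00116 by edgeR). Pcdhb2 had no count in any library of set 1 and 18 counts in all in set 6, which is at least 6.80-fold higher against a floor of 3 counts over set 1, and its adjusted p was 0.0497 by edgeR. That call was lost in 37 of 53 cases of a library left out, with RLE scaling (adjusted p = 0.0508), without the libraries with the other sex's letter (0.0751), with limma voom (0.591) and with DESeq2 (0.337). In the libraries of the second run alone 2 members were higher, against 32.6% of all genes (14.3% higher), with a median of 1.26 beside -0.19 over all genes. They were Pcdha9 (4.10 ± 1.05, SE; adjusted p = 0.00235 by edgeR) and Pcdhga9 (4.48 ± 1.54, SE; adjusted p = 0.0217 by edgeR). Pcdha9 stood at 1.24 to 8.76 CPM in these 4 libraries, all at P7, and at 0 to 1.26 CPM in set 1 over all its ages. These ranges are not matched for age. Set 1 has 1 library at P7, P7 female 10, with 40 counts of Pcdha9 in a total of 42222297. Pcdhga9 had 10, 0, 59 and 23 counts in the 4 libraries, and its call was lost without P7 female S2, which held the 59 (3.14, adjusted p = 0.389 by edgeR), and without the libraries with the other sex's letter (3.41, adjusted p = 0.144). The 41 members that differed in the test of all sets together were 10 alpha, 14 beta, 12 variable gamma and all 5 C-type genes.

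Pcdhgc3 was thus lower than in set 1 in sets 3, 4 and 6. Its means were 15.0, 9.08, 6.69, 3.60 and 4.15 CPM in sets 1, 2, 3, 4 and 6 and 8.35 CPM in set S. BC037039, the gene on the opposite strand, averaged 5.48, 5.34, 2.22, 7.78 and 3.22 CPM in the numbered sets and 2.79 CPM in set S. It was below set 1 in sets 3 and 6 and above it in set 4. Its part in the counts of Pcdhgc3 was not tested.

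Summed levels were compared between sets as well. All members together averaged 54.9 CPM (36.2 to 81.9) in set 1, 50.4 in set 2, 138 (87.8 to 226) in set 3, 27.8 (5.98 to 45.9) in set 4, 51.1 in set 6 and 109 in set S. No library of set 3 reached down to the highest of set 1. The share of C-type genes in the member counts was 45.4% in set 1, 40.9% in set 2, 30.6% in set 3, 31.9% in set 4, 25.5% in set 6 and 31.3% in set S. Within ages, set 3 exceeded set 1 by 2.25 for the alpha sum, 2.19 for the beta sum and 0.88 for the variable gamma sum on the log2 scale (adjusted p = 0.001 each). These p-values come from exact permutation tests of sets within ages, adjusted over 35 tests added after the single-gene results were seen. The C-type sum was higher by 0.75 (adjusted p = 0.00741, same test), and the ratio of C-type genes to all other members was lower by -0.94 (adjusted p = 0.001), in 6 of 6 ages.

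In set 6 the members' total, 51.1 CPM, was near that of set 1, but single clusters differed. The beta sum was higher by 1.05 (adjusted p = 0.00514, exact permutation test), the gamma sum lower by -0.38 (adjusted p = 0.0198) and the C-type sum lower by -1.39 (adjusted p = 0.0171). The C-type difference ran over the 6 ages from -4.47, at P35, where set 6 has P35 female 6 alone, to 0.34, with 1 age higher. Without P35 female 6 it was -0.77 (adjusted p = 0.0512, same exact test). The C-type call was also lost without P7 female 10 or adult male 60, and the gamma call without P14 male 1, P7 female 10, adult male 60 or P35 female 6 (adjusted p-values of 0.0512 to 0.0702). The ratio of C-type genes to the rest was lower by -1.80 (adjusted p = 0.00277, same test). The alpha sum gave 0.37 (adjusted p = 0.439). In set 4 the gamma sum was lower by -0.998 (adjusted p = 0.006) and the C-type sum by -1.70 (adjusted p = 0.00218), while alpha (-1.58, adjusted p = 0.288) and beta (-1.03, adjusted p = 0.432) did not pass by the exact permutation test. Set 2 differed from set 1 in none of the 7 values (smallest adjusted p 0.0874, same test).

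**Figure D5:**
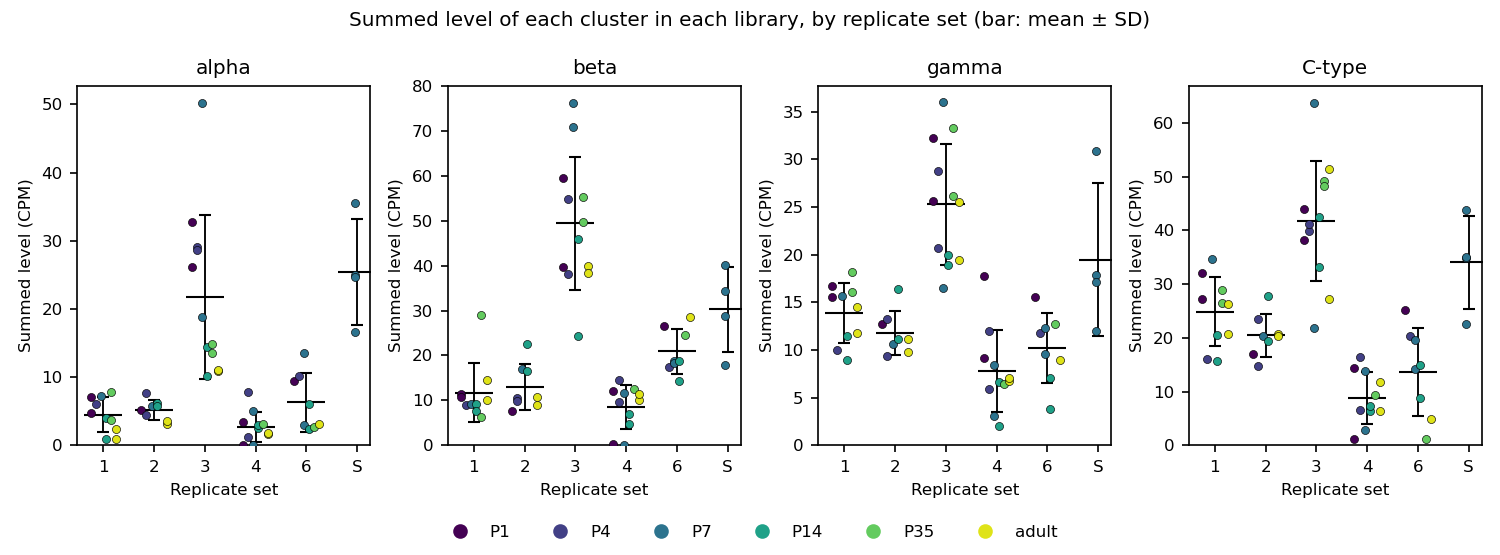
Summed level in CPM (vertical axis) of the alpha, beta, variable gamma and C-type genes in each library, by replicate set (horizontal axis), with points coloured by age and the black bar showing mean ± SD over libraries. The alpha sum averaged 4.49 CPM in set 1 and 21.7 CPM in set 3, and the beta sum 11.7 and 49.5 CPM.

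Markers of other cell types differed between the same sets. Neuron markers were higher than in set 1 in 12 of 12 genes in set 3, with sums of 3974 to 9080 CPM against 1622 to 3432 CPM, and in 11 of 12 in set 6, with sums of 7080 to 11301 CPM. Astrocyte markers were lower in 10 of 10 genes in both, with sums of 3341 to 17681 CPM in set 1, 795 to 9981 in set 3 and 546 to 3081 in set 6. Oligodendrocyte progenitor markers were higher in 4 of 4 genes in set 3, with sums of 29.8 to 119 CPM against 5.60 to 19.0 CPM, and in 0 of 4 in set 6. Endothelial and mural markers were higher in 5 of 6 in set 3, oligodendrocyte markers in 3 of 7 and microglia markers in 2 of 6. In set 4 6 of 10 astrocyte markers were lower, and 6 of 12 neuron markers were higher and 1 lower. In set S 9 of 10 astrocyte markers were lower, and 10 of 12 neuron markers and 2 of 4 oligodendrocyte progenitor markers were higher. Of all genes 28.2% were higher and 24.8% lower in set 3, and 17.2% and 17.1% in set 6. In set 4 8.30% of all genes were lower (17.9% in either direction), and in set S 14.3% were higher (32.6% in either direction). The part of the marker shifts in the members' differences was not tested.

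Sets 3 and 6, both high in neuron markers, were then compared with each other, a comparison added after the marker levels were seen. In set 3 18 members were higher and 0 lower by edgeR, against 29.6% of all genes (15.5% higher). All 54 log2 differences were positive, with a median of 1.72 beside 0.19 over all genes. Pcdhgc5 was higher by 2.11 ± 0.52 (SE; adjusted p = 0.00183 by edgeR), with means of 8.44 and 1.54 CPM. Pcdhb19 was higher by 2.26 (adjusted p = 0.00791) and Pcdhac2 by 1.87 (adjusted p = 0.00879 by edgeR). Pcdhgc3 gave 0.87 and did not pass (adjusted p = 0.167 by edgeR). The alpha, beta, gamma and C-type sums were higher by 1.88, 1.14, 1.26 and 2.13 (adjusted p = 0.0012 each, exact permutation test within ages). In this comparison 5 neuron markers were higher and 4 lower, 8 of 10 astrocyte markers were higher, and 4 of 4 oligodendrocyte progenitor markers were higher. Of 6 endothelial and mural markers 4 were higher and 1 lower, 1 of 6 microglia markers was lower, and 0 of the oligodendrocyte, choroid plexus and ependyma markers passed by edgeR.

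The count of 18 rested on single libraries. It ran from 7, without P14 female 6, to 22 over the libraries left out in turn, and it was 10 or 11 without any 1 of adult male 3, P4 female 3, P1 female 3, P7 male 6 and P35 female 6. It was 10 when P7 was left out (26.1% of all genes) and 32 with limma voom (35%).

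Proteins that act on the clusters or with their products were followed from 3 lists. Of 18 genes of chromatin and cohesin, which govern the choice of promoter, 6 fell from P1 to adult and 0 rose, beside 13.4% and 14.6% of all genes, with a median log2 change of -0.48. Trim28, a co-repressor that brings in a histone methyltransferase, fell from 192 to 82.3 CPM (-1.21 ± 0.26, SE; adjusted p = 0.000339 by edgeR). The DNA methyltransferase genes Dnmt3a (-1.55, adjusted p = 0.00286) and Dnmt1 (-1.37, adjusted p = 0.0217) fell, as did the cohesin subunit gene Stag1 (-0.73, adjusted p = 0.0167 by edgeR). Ctcf averaged 113 CPM at P1 and 83.1 CPM in adults and did not pass (-0.47 ± 0.18, SE; adjusted p = 0.0505 by edgeR). In set 3 13 of these 18 genes were higher than in set 1 and 0 lower (median 0.94), beside 28.2% and 24.8% of all genes, whereas Ctcf gave -0.06 (adjusted p = 0.699 by edgeR), with means of 77.1 and 80.1 CPM. In set 6 6 of the 18 were higher and 1 lower, beside 17.2% and 17.1% of all genes.

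Of 12 nonclustered protocadherins, each a gene of its own outside the 3 clusters, 2 rose and 2 fell from P1 to adult, beside 14.6% and 13.4% of all genes. Pcdh10 rose from 48.4 to 75.0 CPM (0.64, adjusted p = 0.0328 by edgeR) and Pcdh1 by 1.33 on the log2 scale (adjusted p = 0.0473). Pcdh18 fell from 5.65 to 1.73 CPM (-1.72, adjusted p = 0.00819 by edgeR), and Pcdh12, known from endothelial cells, from 0.380 to 0.0273 CPM (adjusted p = 0.0306). In set 3 7 of the 12 were higher and 1 lower than in set 1 (median 1.41), beside 28.2% and 24.8% of all genes. In set 6 1 was higher and 2 lower, beside 17.2% and 17.1%.

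Of 22 signalling partners of the clustered protocadherins, 4 rose and 4 fell from P1 to adult, beside 14.6% and 13.4% of all genes. Marcks, an actin-linked substrate of protein kinase C, fell from 1838 to 453 CPM (-2.05 ± 0.26, SE; adjusted p = 5.89e-08 by edgeR). Axin1, the Wnt pathway scaffold, fell by 1.08 on the log2 scale (adjusted p = 9.69e-05) and the kinase gene Fyn by 0.86 (adjusted p = 0.000195 by edgeR). Wasf3, of the WAVE complex that drives actin branching, rose by 1.57 (adjusted p = 5.41e-06 by edgeR).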

How the data were processed

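The authors deposited raw whole-number read counts for 21118 genes in 53 libraries. The submitters' processing notes name CASAVA, HISAT2, SAMtools and featureCounts, and the build GRCm38.p5. For the annotation release, the counting of overlaps and the strand setting, values were not given in the sources used here. Per the labels, 4 P7 animals were sequenced in 2 runs, and each has 1 column, used as it stands. The libraries were strand-specific, per the labels' protocols.

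Counts were fitted with edgeR 4.0.16 (R 4.3.3; TMM, robust quasi-likelihood F test) in 1 model of the 12 groups of age and sex with a term for the second run alone. Sets were compared in a model of the 12 groups and the set. Adjusted p-values are Benjamini-Hochberg values over 21118 genes, with a threshold of 0.05. Filtering with filterByExpr left out 0 genes. CPM use TMM-scaled totals. Cluster sums, with 0.5 counts added, were compared on the log2 scale by exact permutation tests written in Python with numpy 2.4.6. Their p-values were adjusted in scipy 1.17.1. The scripts were tested on simulated data. Alternatives were RLE scaling, a stricter filter, no filter, limma 3.58.1 voom, DESeq2 1.42.0, the replicate set as a block and each library left out. Gene positions came from GENCODE M21.

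The members and lists were chosen with earlier results of these data known. Genes named are all C-type genes; in each cluster the 4 variable genes with the smallest adjusted p from P1 to adult and those with the highest and lowest mean; up to 3 called members with the smallest adjusted p in each set comparison or step; and up to 4 genes of each further list. Others are said to be chosen otherwise, and Ctcf is named for its role. The comparison of sets 3 and 6, the tests of sums between sets and leaving out single libraries in the tests of sums within and between sets were added after the data were seen. No sequence is shown.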

Additional observations from a re-analysis of the deposited data

Results flagged for a closer look

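In 12 of 70 values, 7 in each of the 10 groups of age and sex with 4 to 8 libraries, the highest or lowest library lay further from its nearest neighbour than Dixon's 95% critical value allows, a gap that chance gives in about 5% of groups. P4 male 3 was high in 4 values on the log2 scale. Its alpha sum was 4.86 (others 2.61 to 2.96), its beta sum 5.25 (others 3.17 to 3.39), its alpha to gamma ratio 0.50 (others -0.79 to -0.63) and its beta to gamma ratio 0.88 (others -0.34 to -0.15). P1 male 3 had an alpha to gamma ratio of 0.0251 (others -1.40 to -1.24). Both carry replicate number 3.

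P7 female 40 was low in 4 values. It held 0 alpha counts and 1 beta count, so these values are set largely by the 0.5 counts added to each sum and are floors, not measured levels. Its alpha sum was -5.52 (others 2.34 to 5.65), its beta sum -3.93 (others 3.20 to 6.25), its alpha to gamma ratio -7.14 (others -1.12 to 1.05) and its beta to gamma ratio -5.55 (others -0.78 to 2.10). P1 female 4 had a C-type sum of 0.30 (others 4.66 to 5.46), and 253 of its 275 member counts were those of Pcdhga12, at 17.8 CPM.

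A pair of libraries with replicate number 6 also stood apart. Adult male 60 had a C-type to rest ratio of -3.06 (others -0.65 to -0.18), and P14 female 6 a beta to gamma ratio of 2.32 (others -0.21 to 0.47).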

How the results depend on the processing

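Pcdhgc5 passed from P1 to adult under all 61 alternatives, with log2 changes of 2.05 to 2.93 and adjusted p-values of at most 0.0143. The count of members changed from P1 to adult was 1 with limma voom (28.6% of all genes). It was 1 to 4 over single libraries left out. Without adult female 1, P1 male 3 or P1 female 3 it was 1, and without adult male 3 it was 4. Over the 6 ages the count was 2 with DESeq2 (31.2% of all genes) and 2 without the libraries with few genes (29.8%). It was 1 to 2 over libraries left out. The set 3 count ran from 27 to 35 over libraries left out and that of all sets from 39 to 42. The set 4 count was 9 with limma voom (21.7% of all genes) and 11 with DESeq2 (24.7%). It was 3 without the libraries with few genes (12.3%) and 3 to 9 over libraries left out. Single libraries gave 3 (without P14 male 1, adult female 1 or adult female 4), 8 (without P4 male 4) and 9 (without P1 male 4). The set 6 count was 1 with RLE scaling (34.2% of all genes), 4 with limma voom (38.2%) and 5 with DESeq2 (40.4%). It was 1 without the libraries with the other sex's letter (30.6%) and 4 without those with few genes (46.2%). Over libraries left out it was 1 to 3, and 25 of them changed it. The count of set S was 11 with limma voom (35.1% of all genes) and 8 with DESeq2 (38.1%). It was 6 without the libraries with few genes (43.8%) and 1 to 4 over libraries left out. The set 3 against set 6 count was 32 with limma voom (35% of all genes), 10 without P7 (26.1%), and 7 to 22 over libraries left out. For single libraries left out the share of all genes was not computed. The causes of these shifts were not tested.

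The cluster sums from P1 to adult ran over libraries left out from -1.51 to -0.10 (alpha), -0.19 to 0.85 (beta), -0.69 to -0.41 (gamma) and -0.64 to 0.14 (C-type). The ratios ran from -0.98 to 0.31 (alpha to gamma), 0.34 to 1.26 (beta to gamma) and -0.12 to 0.54 (C-type to the rest). As a mean of log2 CPM over members, the C-type change was 0.0390 and alpha to gamma -0.57. Pcdhac2 from P1 to adult ran from -0.77 to 0.11 over libraries left out, with 0.01 without P1 male 3 and 0.11 without P1 female 3, and Pcdhb2 from -2.75 to 0.14, the latter without P1 male 3. Of 2310 alternative values for 38 results on single members, 2212 kept direction and call, 79 lost the call, 16 gained it and 3 turned direction.

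With the replicate set as a block, 4 members changed from P1 to adult, against 41.3% of all genes, and 2 over the 6 ages, against 43.5%. The 4 were Pcdhgc5 (2.26 ± 0.52, SE; adjusted p = 0.000542 by edgeR), Pcdha6 (-2.36, 0.0402), Pcdha9 (-2.05, 0.0477) and Pcdhgc3 (-1.16, 0.0465). With this block the gamma sum gave -0.53 and the beta to gamma ratio 1.05, both past the threshold, while alpha to gamma gave -0.11 and C-type to the rest -0.0197. The labels do not say that a number marks a shared source. Deviations from the group means correlated above 0.1 in 201 of 223 pairs of libraries that share a number (median r 0.346, against -0.0798 in 1055 pairs that do not), and 42 of 53 libraries correlated best with their own number, a hint from the data and not from the design.

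The members had a median of 1435 counts per library, and 25 of them were at 0 in 10 or more libraries. How the number of calls depends on depth was not tested.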
